A study of Homo sapiens with 12 samples.

Results

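The genes described here encode regulatory (B) subunits of protein phosphatase 2A (PP2A), measured by RNA sequencing in intrahepatic cholangiocarcinoma (ICC) cells after knockdown of LKB1. Members were the rows of the deposited expression table whose symbol is 1 of 10 listed subunit genes. Of these 10, 9 have a row among the 18798 rows used, namely PPP2R2A, PPP2R2B, PPP2R2C, PPP2R3A, PPP2R5A, PPP2R5B, PPP2R5C, PPP2R5D and PPP2R5E, and all 9 passed the filter on low values. PPP2R2D was not analysed here. The set was picked with measured values in view, namely a large increase of PPP2R2B and a decrease of PPP2R5D with LKB1 siRNA, so the differences between the siRNAs are given as a description of the members, with no p-value for any of them. The choice names no level in control cells, and these levels were tested between lines. Control values of PPP2R2B and PPP2R5D are nonetheless part of the differences named in the choice. Tests on the control levels of these genes are therefore not independent of it.

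PP2A is a serine/threonine phosphatase built from a scaffold (A) subunit, a catalytic (C) subunit and 1 interchangeable B subunit that sets the substrate and the place of action in the cell. The B55 family comprises PPP2R2A, PPP2R2B, PPP2R2C and PPP2R2D, the B56 family comprises PPP2R5A to PPP2R5E, and PPP2R3A belongs to the calcium-binding B″ family. A given B subunit competes with the others for the same AC core, which is why their relative levels are of interest. LKB1, encoded by STK11, is a tumour suppressor kinase that activates AMPK, and PP2A is among the phosphatases that remove phosphate from AMPK. In Wnt signaling, B56 subunits take part in the complex that marks β-catenin for degradation, and PPP2R2A can remove phosphate from β-catenin.

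The 6 groups were HuH-28, RBE and SSP-25 cells, each transfected with LKB1 siRNA or with control (scramble) siRNA and harvested at 48 h, with 2 libraries in each group and 12 in all. All are established human ICC lines, and the sequence of the LKB1 siRNA is not given here. The study numbers the libraries of a group as a first and a second test, with no word on what the tests shared. Any p-value given here thus reflects only how far these libraries spread, which may be technical. HuH-28 was grown in MEM and the other lines in RPMI1640, so that line and medium cannot be told apart where HuH-28 is compared with them. Values are the authors' normalized reads per kilobase, called signal here. Signal is per kilobase and can be set side by side between genes, but the read depth behind it is unknown.

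LKB1 mRNA (STK11, chromosome 19) was lower with LKB1 siRNA in every line, at 215 ± 11.4 against 649 ± 69.0 with control siRNA in HuH-28, 143 ± 18.2 against 457 ± 39.0 in RBE cells, and 67.3 ± 7.80 against 462 ± 2.92 in SSP-25 (SD, n = 2 each). The summed signal of a library ranged from 9909644 to 11726703. Of the biliary epithelium markers KRT7, KRT19, EPCAM and SOX9, RBE libraries had all 4 at 296 or more and SSP-25 libraries at 81.7 or more. In HuH-28, EPCAM was at or below 1.31 and KRT19 between 9.86 and 17.3, while KRT7 was between 2406 and 3020. Of 3 fibroblast markers, COL1A1 was between 12720 and 18628 in HuH-28 and between 6538 and 11339 in SSP-25, whereas COL1A2, the partner chain of its collagen, was at or below 30.5 and PDGFRB at or below 107 in every library. The 4 biliary markers summed to between 3111 and 3278 with LKB1 siRNA and between 2606 and 2686 with control siRNA in HuH-28, to between 24959 and 25076 and between 26546 and 27871 in RBE cells, and to between 10643 and 10856 and between 7039 and 7362 in SSP-25. The fibroblast sums, nearly all of them COL1A1 in HuH-28 and SSP-25, were 16640 to 18696 with LKB1 siRNA and 12750 to 14024 with control siRNA in HuH-28, 74.9 to 80.4 and 52.8 to 54.7 in RBE cells, and 11080 to 11475 and 6575 to 6987 in SSP-25. For 3 leukocyte markers the sums were 12.2 to 12.8 with LKB1 siRNA and 8.15 to 13.1 with control siRNA in HuH-28, 3.07 to 3.97 and 4.53 to 7.11 in RBE cells, and 25.8 to 29.4 and 10.1 to 10.7 in SSP-25, where CD14 was between 9.97 and 28.8. Sums of 3 hepatocyte markers were at or below 18.7 and those of the endothelial markers PECAM1 and CDH5 at or below 13.0 in every library. Several of these sums moved with the siRNA, and their part in the differences described below was not tested. In RNA from whole cultures, fewer cells of a type and less RNA per cell cannot be told apart.

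**Figure D1:**
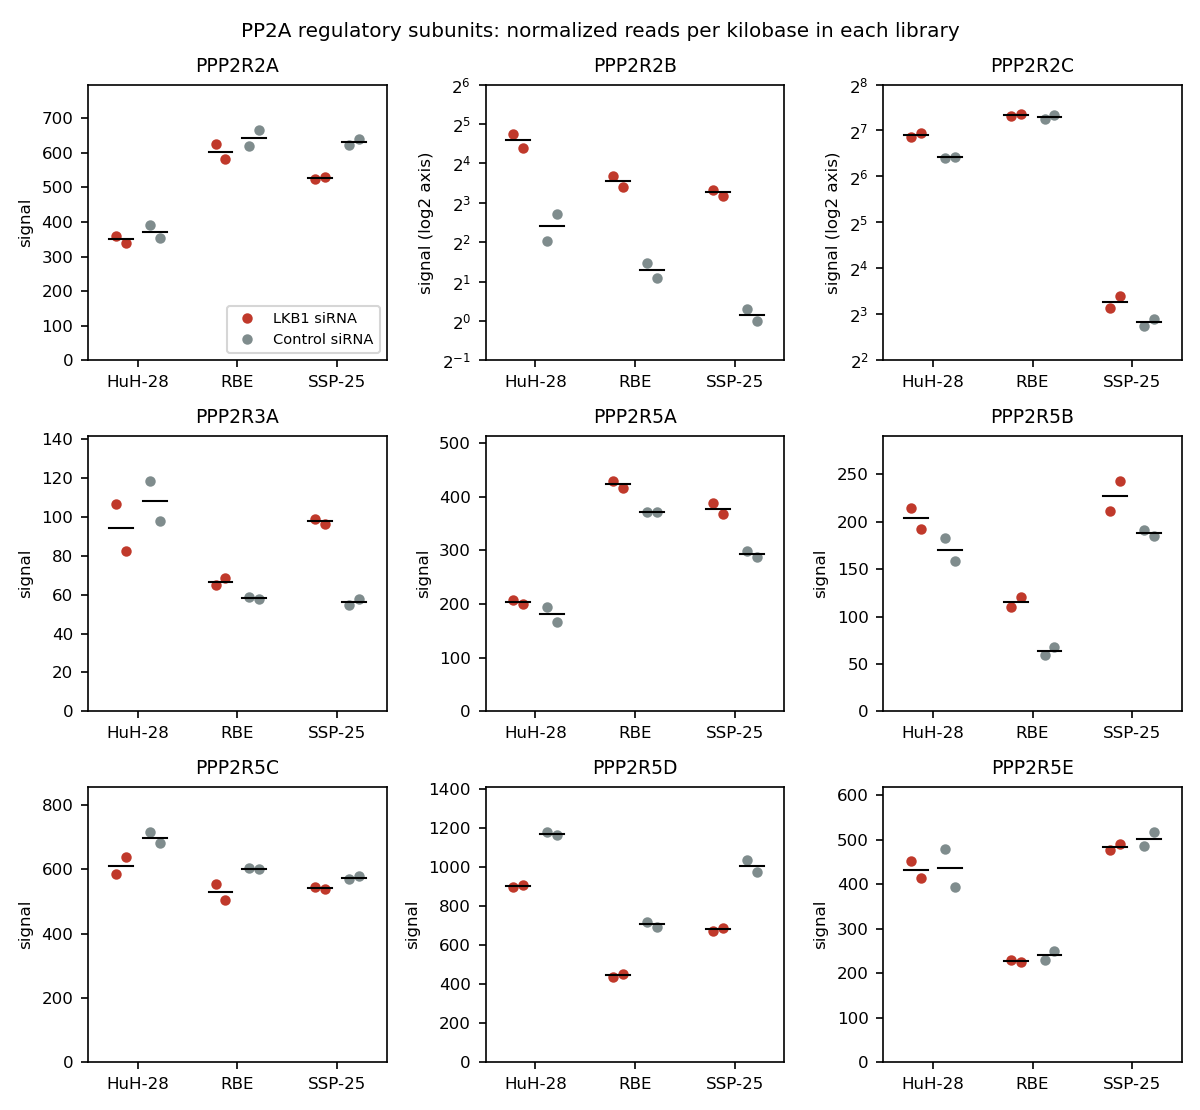
Signal (authors' normalized reads per kilobase, y axis) of the 9 PP2A regulatory subunits in each library, by cell line (x axis), with LKB1 siRNA in red left of control siRNA in gray; horizontal bars are means of 2 libraries, and PPP2R2B and PPP2R2C are on log2 axes. PPP2R2B lies higher with LKB1 siRNA in all 3 lines, at 9.08 or more against 6.51 or less, and PPP2R5D lies lower in all 3.

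The lines were first compared in control cells, to show which B subunit mRNAs are present where LKB1 is not attenuated. PPP2R5D, a B56 subunit whose mutation causes a neurodevelopmental disorder, had the highest signal of the 9 subunits in each line, at 1172 ± 9.12 in HuH-28, 708 ± 17.4 in RBE cells and 1008 ± 41.6 in SSP-25 (SD, n = 2 each). PPP2R5C, a B56 subunit known for directing PP2A to p53, came next in HuH-28, and PPP2R2A, the widely expressed B55 subunit that acts at the exit from mitosis, came next in RBE cells and SSP-25. PPP2R2B, a B55 subunit best known from neurons and the site of a repeat expansion in a spinocerebellar ataxia, was the lowest of the 9 in every line. In the order of control levels, neighbouring subunits were apart in all libraries, except PPP2R5A and PPP2R5B in HuH-28, which overlapped.

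Among the 9 subunits, the largest difference between lines was that of PPP2R2C, a B55 subunit enriched in brain. Its control signal was 84.8 and 85.8 in HuH-28, 152 and 163 in RBE cells, and 6.69 and 7.49 in SSP-25. SSP-25 thus had far less PPP2R2C than both other lines, with a log2 difference of -4.38 from RBE (standard error 0.12, limma adjusted p = 4.08e-10), and HuH-28 exceeded SSP-25 by 3.50 (limma adjusted p = 1.82e-09). HuH-28 was in turn lower than RBE, with a log2 difference of -0.88 (limma adjusted p = 4.81e-05).

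PPP2R2B followed another order. Control signal was 4.09 and 6.51 in HuH-28, 2.77 and 2.13 in RBE cells, and 1.23 and 0.996 in SSP-25, so that the libraries of the lines did not overlap. HuH-28 exceeded RBE by 0.95 (standard error 0.27, limma adjusted p = 0.00824) and SSP-25 by 1.82 (limma adjusted p = 0.000133) on the log2 scale. The difference of -0.86 between SSP-25 and RBE (limma adjusted p = 0.0148) did not pass with a pseudocount of 10 (adjusted p = 0.19), without the first RBE control library (0.089) or without the second SSP-25 control library (0.0727). That between HuH-28 and RBE was lost when the second control library of HuH-28 (adjusted p = 0.0734) or of RBE (0.056) was left out.

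For the B56 subunits PPP2R5B and PPP2R5E, RBE was the line that stood apart. PPP2R5B had control signals of 183 and 159 in HuH-28 and of 191 and 185 in SSP-25, but of 60.0 and 68.2 in RBE. SSP-25 exceeded RBE by 1.55 on the log2 scale (standard error 0.11, limma adjusted p = 4.18e-07), and HuH-28 exceeded RBE by 1.40 (7.21e-07). PPP2R5E was likewise lowest in RBE, at 230.3 and 251 against 480 and 394 in HuH-28 and 485 and 516 in SSP-25, and SSP-25 exceeded RBE by 1.06 (standard error 0.09, limma adjusted p = 2.02e-06). For PPP2R5A, a subunit known for directing PP2A to MYC, RBE was highest and HuH-28 lowest, with 372 and 372 in RBE, 299 and 287 in SSP-25 and 195 and 167 in HuH-28. HuH-28 had log2 differences of -1.04 from RBE (standard error 0.07, limma adjusted p = 3.69e-07) and -0.70 from SSP-25 (9.57e-06), and SSP-25 had one of -0.34 from RBE (0.00173). HuH-28 and SSP-25 were not told apart by PPP2R5B, with a log2 difference of -0.14 (limma adjusted p = 0.25, and 0.0337 after quantile normalization), or by PPP2R5E, with -0.20 (0.0651, and 0.00404 without the first HuH-28 control library).

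The remaining subunits differed less between lines. PPP2R5D was higher in HuH-28 than in RBE by 0.73 (standard error 0.05, limma adjusted p = 2.09e-07) and higher in SSP-25 than in RBE by 0.51 (4.18e-06). PPP2R2A was lower in HuH-28, at 390 and 353, than in RBE, at 619 and 664, and in SSP-25, at 623 and 639, with log2 differences of -0.79 and -0.76 (limma adjusted p = 1.34e-06 and 1.99e-06). PPP2R3A was higher in HuH-28, at 118 and 97.9, than in RBE, at 58.7 and 57.5, and in SSP-25, at 54.5 and 57.8, by 0.88 (limma adjusted p = 0.000125) and by 0.93 (9.21e-05). PPP2R5C varied least and was highest in HuH-28, at 715 and 681 in HuH-28, 603 and 600 in RBE cells, and 570 and 580 in SSP-25. HuH-28 exceeded SSP-25 in it by 0.28 (limma adjusted p = 0.0018). The excess of 0.21 over RBE (limma adjusted p = 0.00844) was lost after quantile normalization (0.349), with libraries rescaled to the same total (0.262) and without the first HuH-28 control library (0.0526). Between SSP-25 and RBE, PPP2R5C had a log2 difference of -0.07 (limma adjusted p = 0.348), which passed after quantile normalization (0.00732) and with the same total (0.0064), and PPP2R2A had one of -0.02 (0.769, and 0.0241 after quantile normalization).

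By count, 9 of the 9 subunits passed between HuH-28 and RBE, where 77.3% of all genes tested did. Of them 6 were higher and 3 lower in HuH-28 (background 39.2% and 38.1%). Between HuH-28 and SSP-25, 7 of 9 passed (background 74.8%), 5 higher and 2 lower in HuH-28 (38% and 36.8%). Between SSP-25 and RBE, 6 of 9 passed (73.1%), 3 higher and 3 lower in SSP-25 (37.2% and 35.9%). These shares are read against a background in which most genes differed between the lines, and the 3 comparisons share control libraries with each other and with the siRNA differences that follow.

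With LKB1 knockdown, PPP2R2B was the subunit with the greatest difference in each line. In HuH-28 its signal was 27.0 and 20.9 with LKB1 siRNA, against 4.09 and 6.51 with control siRNA. RBE cells gave 12.9 and 10.6 with LKB1 siRNA, against 2.77 and 2.13 with control siRNA. SSP-25 cells gave 10.1 and 9.08 with LKB1 siRNA, against 1.23 and 0.996 with control siRNA. Every LKB1 siRNA library, of whatever line, was above every control library. The ratio of means was 4.52 in HuH-28, 4.80 in RBE cells and 8.61 in SSP-25, and the difference in log2(signal + 0.5) was 2.10, 2.06 and 2.65 in the same order (standard error 0.27 each). On average over the lines it was 2.27 (standard error 0.16), the rank 10 of 16146 genes from the largest increase, between RAB39B at 2.34 and KIF5C at 2.26. The signal of PPP2R2B is low, and adding 0.5 to it before taking log2 makes the change of low genes look smaller. With a pseudocount of 10 the average was 0.92, and the lines had 1.15, 0.80 and 0.82.

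PPP2R5D, which had the highest control signal of the 9 subunits, had less signal with LKB1 siRNA in all lines. HuH-28 cells had 898 and 911 with LKB1 siRNA, against 1179 and 1166 with control siRNA. RBE cells had 437 and 454 with LKB1 siRNA, against 720 and 695 with control siRNA. SSP-25 cells had 673 and 691 with LKB1 siRNA, against 1037 and 978 with control siRNA. No libraries of the siRNAs overlapped within a line, and the mean with LKB1 siRNA differed from that with control siRNA by -22.9%, -37.0% and -32.3% for HuH-28, RBE and SSP-25. The log2 differences were -0.37, -0.67 and -0.56 (standard error 0.05 each), with an average of -0.53 (standard error 0.03), which ranked 1093 from the largest decrease. Its 3 differences were small beside those of PPP2R2B, but rested on much higher signals.

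**Figure D2:**
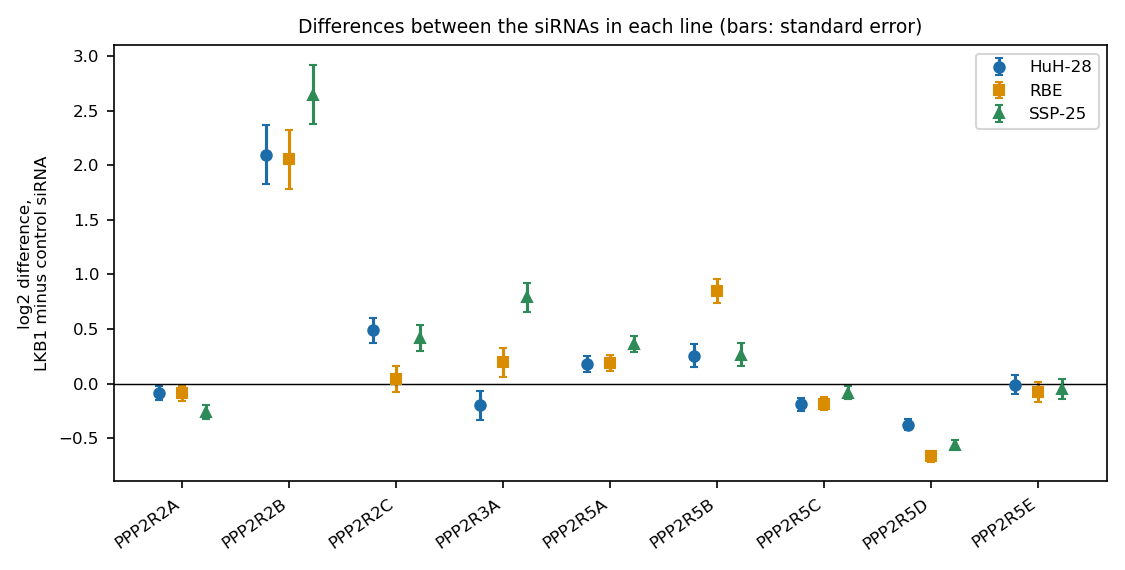
Log2 difference, LKB1 siRNA minus control siRNA, on the log2(signal + 0.5) scale (y axis) for each subunit (x axis) in HuH-28, RBE and SSP-25; points are differences of means of 2 libraries and bars are standard errors from the fit over all genes. PPP2R2B lies between 2.06 and 2.65, PPP2R5D between -0.67 and -0.37, and PPP2R3A spreads from -0.20 in HuH-28 to 0.79 in SSP-25.

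PPP2R2B lies on chromosome 5 (chr5:146581146-147084784, reverse strand) and PPP2R5D on chromosome 6 (chr6:42984499-43012342, forward strand) in GENCODE v29 on GRCh38. The 7-base words GCAGTAC and GAAGGAA were searched for on the transcript strand of the longest annotated 3′ UTR of each subunit. The words were picked on these data. Whether the siRNA difference over all genes varied with them was not tested, and genes with and without a word differed in UTR length. None of the 9 subunits holds GCAGTAC, and only PPP2R2B and PPP2R5D hold GAAGGAA, each once. The matches are shown with 10 bases on either side, 5′ to 3′, with the word in capitals:
PPP2R2B: tcagttgaatGAAGGAAaatggaagcc
PPP2R5D: aaactagaaaGAAGGAAgcagggagcg
The word starts at base 2945 of the 8801 bases of the UTR of PPP2R2B and at base 775 of the 1056 bases of that of PPP2R5D. It is in 20.9% of 14930 UTRs searched, in 69.6% of 349 UTRs about as long as that of PPP2R2B, and in 14% of 2050 about as long as that of PPP2R5D. PPP2R2B, which was higher with LKB1 siRNA, and PPP2R5D, which was lower, thus carry the same word. Over all genes the median average difference was -0.01 with GAAGGAA (median UTR length 2878.5 bases) and 0.04 without it (957 bases), and 0.26 with GCAGTAC (743 genes, median UTR length 3224 bases) and 0.02 without it (1167 bases). A match describes the sequence only, and its part in the differences was not tested.

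PPP2R2A and PPP2R2C, the other B55 subunits, had smaller differences, which were not shown to differ between lines (adjusted p = 0.264 and 0.113, limma's F test). PPP2R2A had 360 and 339 with LKB1 siRNA and 390 and 353 with control siRNA in HuH-28, and 625 and 581 against 619 and 664 in RBE. Its libraries overlapped in both lines. In SSP-25 it had 524 and 529 with LKB1 siRNA, below 623 and 639 with control siRNA, a log2 difference of -0.26 (standard error 0.07). PPP2R2C had 117 and 123 with LKB1 siRNA against 84.8 and 85.8 with control siRNA in HuH-28, a log2 difference of 0.49 (standard error 0.12). Its values were 8.79 and 10.6 against 6.69 and 7.49 in SSP-25, a difference of 0.42, but 159 and 165 against 152 and 163 in RBE, where libraries overlapped and the difference was 0.04. After quantile normalization the SSP-25 difference of PPP2R2C was 0.13, and with a pseudocount of 10 it was 0.20.

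PPP2R3A, the B″ subunit, differed between lines in its response. SSP-25 cells had 99.0 and 96.2 with LKB1 siRNA, against 54.5 and 57.8 with control siRNA, a log2 difference of 0.79 (standard error 0.13). RBE cells had 64.7 and 68.6 against 58.7 and 57.5, a difference of 0.20. In HuH-28 the libraries overlapped, at 106 and 82.2 with LKB1 siRNA and 118 and 97.9 with control siRNA, a difference of -0.20. The responses of the 3 lines differed (limma's F test across all genes, adjusted p = 0.0101). With LKB1 siRNA the libraries of SSP-25 lay between those of HuH-28, whereas with control siRNA SSP-25 had a log2 difference of -0.05 from RBE (limma adjusted p = 0.765).

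PPP2R5B was the other subunit whose response differed between lines. RBE cells, with the lowest control level, had 110 and 121 with LKB1 siRNA, against 60.0 and 68.2 with control siRNA, a log2 difference of 0.85 (standard error 0.11). HuH-28 had 215 and 193 against 183 and 159, and SSP-25 had 211 and 242 against 191 and 185, with differences of 0.26 and 0.27. All LKB1 siRNA libraries were above the control libraries of their line. The F test of the difference between lines gave an adjusted p of 0.0234 (limma). It did not pass with libraries rescaled to the same total (0.0696), without the first RBE control library (0.0928), the second RBE LKB1 library (0.0963) or the first SSP-25 control library (0.0552).

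Of the other B56 subunits, PPP2R5A was higher with LKB1 siRNA in every line, at 208 and 200 against 195 and 167 in HuH-28, 428 and 417 against 372 and 372 in RBE cells, and 387 and 367 against 299 and 287 in SSP-25. Its log2 differences were 0.18, 0.18 and 0.36 (standard error 0.07 each). PPP2R5C was lower in every line, at 584 and 639 against 715 and 681 in HuH-28, 554 and 506 against 603 and 600 in RBE cells, and 545 and 538 against 570 and 580 in SSP-25. The log2 differences of PPP2R5C were -0.19, -0.18 and -0.08 (standard error 0.06 each), and that of SSP-25 was -0.019 with libraries rescaled to the same total. PPP2R5E had 452 and 414 with LKB1 siRNA and 480 and 394 with control siRNA in HuH-28, 230 and 226 against 230.3 and 251 in RBE cells, and 476 and 491 against 485 and 516 in SSP-25. Libraries of PPP2R5E overlapped in HuH-28 and SSP-25, and its differences lay between -0.08 and -0.01 (standard error 0.09 each). The HuH-28 difference of PPP2R5E was 0.13 without the first control library and -0.15 without the second.

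Counts of the subunits past the threshold include PPP2R2B and PPP2R5D, for which the set was chosen, so nothing is read from them against other genes. By an adjusted p under 0.05 in the fit over all genes, 5 of 9 subunits were counted higher and 3 lower for the mean of the lines, where 27.3% of all genes were higher and 25.2% lower. The counts were 2 higher and 2 lower in HuH-28 (background 14.3% and 15.5%), 2 and 2 in RBE (22.1% and 18.6%), and 4 and 2 in SSP-25 (21.1% each). Libraries did not overlap in any line for 3 subunits that were higher, PPP2R2B, PPP2R5A and PPP2R5B (background 13.6%), and for 2 that were lower, PPP2R5C and PPP2R5D (background 13.9%). The median average log2 difference was 0.24 over the 9 subunits and 0.03 over all genes. Setting PPP2R2B and PPP2R5D aside, 2 of 7 subunits differed between lines in their response, near the background of 28.2%. For the other 5 the F test gave adjusted p values (limma) of 0.264 for PPP2R2A, 0.113 for PPP2R2C, 0.297 for PPP2R5A, 0.541 for PPP2R5C and 0.908 for PPP2R5E. PPP2R2C passed it with a pseudocount of 10 (adjusted p = 0.0418).

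The balance of the subunits was described as the share of each in the summed signal of the 9 in a library. Shares of a whole depend on each other, so a smaller share of PPP2R5D enlarges those of the others. PPP2R5D made up 30.7% ± 0.641 with LKB1 siRNA and 36.3% ± 1.61 with control siRNA in HuH-28, 17.2% ± 0.806 and 24.9% ± 0.950 in RBE cells, and 23.1% ± 0.213 and 30.9% ± 1.16 in SSP-25 (SD, n = 2 each). PPP2R2B made up 0.814% with LKB1 siRNA and 0.166% with control siRNA in HuH-28, 0.453% and 0.0861% in RBE cells, and 0.325% and 0.0342% in SSP-25. The subunit with the greatest fold difference therefore stayed below 1% of the summed signal of the 9 in each group mean. PPP2R5A took a larger share with LKB1 siRNA, at 6.93% against 5.59% in HuH-28, 16.3% against 13.1% in RBE cells, and 12.8% against 8.99% in SSP-25. In RBE cells PPP2R5D was the leading subunit with control siRNA but stood behind PPP2R2A, at 603, and PPP2R5C, at 530, with LKB1 siRNA, where its mean was 446. In HuH-28 and SSP-25 it led with either siRNA.

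As families, the B56 subunits made up most of the summed signal of the 9. The B55 share is without PPP2R2D, and other regulatory subunits of PP2A, such as STRN4, are outside the sum. Their share was 80.0% ± 0.858 with LKB1 siRNA and 82.3% ± 0.250 with control siRNA in HuH-28, 67.4% ± 0.348 and 69.8% ± 0.925 in RBE cells, and 78.2% ± 0.134 and 78.7% ± 0.511 in SSP-25 (SD, n = 2 each). The 3 B55 subunits had 16.8% against 14.3% in HuH-28 and 30.1% against 28.2% in RBE, but 18.5% against 19.6% in SSP-25. A larger share of a family need not mean more signal of each of its members. In HuH-28 the mean of PPP2R2C was higher with LKB1 siRNA, at 120 against 85.3. The mean of PPP2R2A was lower with LKB1 siRNA in each line, though its libraries overlapped in HuH-28 and RBE. It was 349 against 372 in HuH-28, 603 against 642 in RBE and 527 against 631 in SSP-25. The summed signal of the 9 was 2944 ± 32.3 with LKB1 siRNA and 3228 ± 168 with control siRNA in HuH-28, 2586 ± 51.3 and 2846 ± 38.6 in RBE cells, and 2955 ± 28.6 and 3259 ± 12.1 in SSP-25. In the same order of lines and siRNAs, the sums without PPP2R5D were 2040 and 2056, 2140 and 2138, and 2273 and 2251. They differed between the siRNAs by less than the larger SD of the pair of groups. With 2 libraries in a group this does not show that the sums were equal, and the decrease of PPP2R5D was part of the choice of the set. No test was made of sums over chosen genes.

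**Figure D3:**
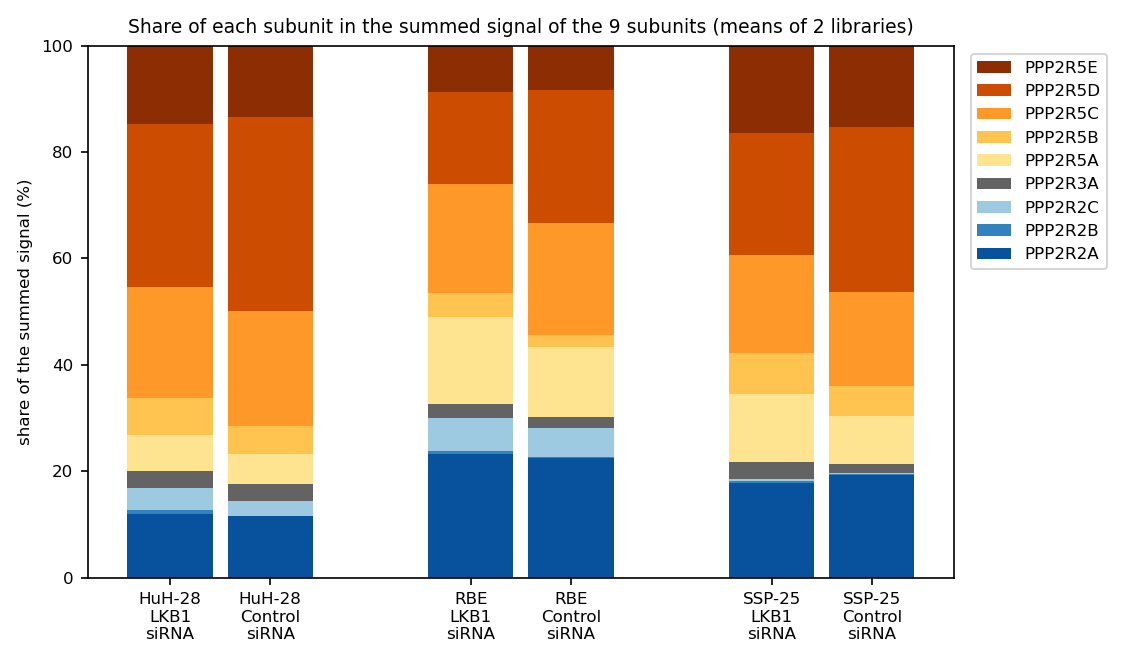
Share (%, y axis) of each of the 9 subunits in their summed signal, as means of 2 libraries, for each line with LKB1 siRNA left of control siRNA (x axis); B55 subunits are in blue, PPP2R3A in gray and B56 subunits in yellow to brown. The PPP2R5D band is narrower with LKB1 siRNA in each line, at 30.7%, 17.2% and 23.1% against 36.3%, 24.9% and 30.9% for HuH-28, RBE and SSP-25.

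The B subunits act on the AC core and beside other partners, and 49 further genes of PP2A and of the related phosphatases PP4 and PP6 were therefore counted by role. On average over the lines 6 of the 49 were higher and 21 lower with LKB1 siRNA by adjusted p (background 27.3% and 25.2%), and their median log2 difference was -0.06, against 0.03 over all genes. Within lines the tally was 3 higher and 11 lower for HuH-28 (background 14.3% and 15.5%), 5 higher and 19 lower for RBE (22.1% and 18.6%), and 8 higher and 20 lower for SSP-25 (21.1% each). The lists were drawn up with earlier results of these data known. Their counts and medians therefore describe the listed genes, and nothing is read from them against other genes.

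Of the 4 scaffold and catalytic genes, 1 rose and 3 fell on average (background 27.3% and 25.2%). PPP2R1B, which encodes the less abundant scaffold subunit, had 902 and 930 with LKB1 siRNA against 565 and 603 with control siRNA in SSP-25, 225 and 223 against 157 and 167 in RBE, and 463 and 461 against 398 and 409 in HuH-28. It rose by 0.44 on average on the log2 scale (standard error 0.03, limma adjusted p = 1.39e-06), with 0.19, 0.47 and 0.65 for HuH-28, RBE and SSP-25 (limma's F test between lines, adjusted p = 0.00539). Its share of the scaffold signal was 11.9% against 10.6% in HuH-28, 7.38% against 4.49% in RBE cells, and 25.4% against 16.4% in SSP-25. PPP2CA, the main catalytic subunit gene, fell by 0.29 on average (standard error 0.05, limma adjusted p = 0.000519). Its HuH-28 libraries overlapped, at 2431 and 2852 with LKB1 siRNA against 2660 and 3026 with control siRNA. The summed signal of the 9 members was divided by the summed scaffold signal, with other regulatory subunits left out. This ratio was 0.755 against 0.846 in HuH-28, 0.852 against 0.788 in RBE cells, and 0.818 against 0.914 in SSP-25. It had no common direction.

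Of 6 other regulatory subunit genes, 0 rose and 3 fell on average (background 27.3% and 25.2%, also for the lists that follow). STRN4, a striatin that scaffolds the STRIPAK complex of PP2A with kinases, fell by 0.58 (standard error 0.03, limma adjusted p = 4.27e-07), with 1132 and 1033 against 1598 and 1490 in HuH-28. Among 12 STRIPAK partners 2 rose and 5 fell, and SIKE1 and SLMAP, which bind each other in that complex, fell by 0.39 and 0.26 (limma adjusted p = 9.34e-06 and 0.000413). Among 14 inhibitors and modifiers 1 rose and 5 fell. PPME1, the methylesterase that removes the methyl group from the catalytic subunit, fell by 0.34 (standard error 0.03, limma adjusted p = 1.83e-05). LCMT1, the methyltransferase that adds this group, fell by 0.37 (limma adjusted p = 5.10e-05). FAM122A, an inhibitor of PP2A with B55, fell by 0.40 (standard error 0.04, limma adjusted p = 1.86e-05). The gene of this list that rose was FAM122B, by 0.17 on average (limma adjusted p = 0.0394). It had -0.10, -0.22 and 0.82 for HuH-28, RBE and SSP-25. Among 13 PP4 and PP6 genes 2 rose and 5 fell. PPP4R1, a regulatory subunit of PP4, fell by 0.53 (standard error 0.03, limma adjusted p = 5.52e-07). ANKRD44, an ankyrin repeat subunit of PP6, rose by 0.56 on average (standard error 0.08, limma adjusted p = 0.000169), with 0.84 in HuH-28 and 0.76 in SSP-25 but 0.09 in RBE.

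**Figure D4:**
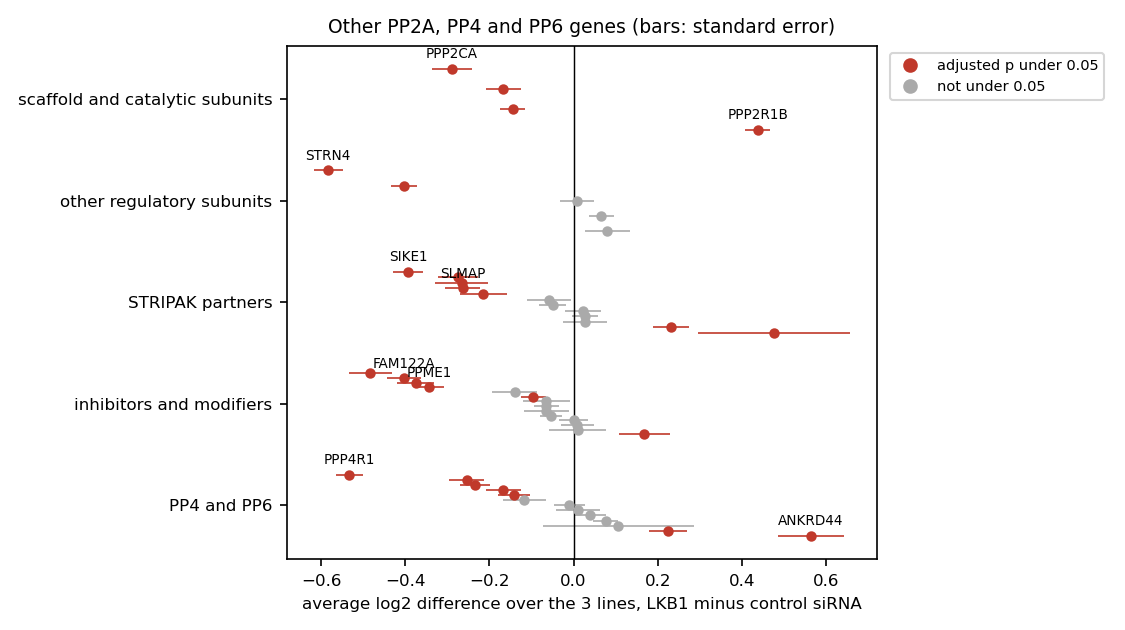
Average log2 difference over the 3 lines, LKB1 siRNA minus control siRNA (x axis), for PP2A, PP4 and PP6 genes other than the members, grouped by role (y axis); bars are standard errors, red marks an adjusted p under 0.05, and 1 gene of the second group is not drawn. More points lie left of 0 than right among the red ones. Over all 49 genes, the 1 not drawn included, 21 were lower and 6 higher.

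The genes whose pattern was most like that of the leading subunits were found by Pearson's r of log2(signal + 0.5) over the 12 libraries, among 13048 genes whose mean signal was 10 or more. For PPP2R2B these were UCK1 (0.985), LIMK2 (0.983), PWP2 (0.982), NCOA5 (0.982) and ZCCHC3 (0.978). UCK1, a uridine-cytidine kinase, had log2 differences of 1.06, 1.26 and 1.40 for HuH-28, RBE and SSP-25, smaller than those of PPP2R2B in each line. For PPP2R5D they were FERMT2 (0.996), DSN1 (0.989), VAT1 (0.989), SP110 (0.988) and C14orf45 (0.980). FERMT2, which encodes an integrin activator, had differences of -1.20, -2.09 and -2.07, and VAT1 had -0.38, -0.63 and -0.56. The points share lines and siRNAs, so these correlations describe the pattern and carry no p.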

How the data were processed

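RNA sequencing of 12 libraries gave 1 table, in which the authors deposited normalized reads per kilobase for each gene, a signal whose scaling the sources used here do not describe. The paper's methods name NextGENe and RefSeq mRNA for alignment, while the submitters' processing notes list TopHat 1.2.0, edgeR, hg19 and GRCh37, and the sources used here do not say which pipeline produced it. Of 18815 rows, 17 exact repeats were left out. Groups came from the sample labels. Signal was tested as log2(signal + 0.5) with limma 3.58.1 in R 4.3.3, fitting 6 group means with an eBayes trend (6 residual degrees of freedom), and p-values were adjusted by Benjamini-Hochberg over the 16146 genes that reached a signal of 1 in 2 or more libraries. A gene passed at an adjusted p under 0.05. The same code was tested on simulated data.

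The members, gene lists and 3′ UTR words were chosen with earlier results of these data known. Named beside the members were STK11, in each list every gene that passed with an average log2 difference above 0.5 in size or otherwise the 2 with the smallest p, and the 5 genes most correlated with PPP2R2B and with PPP2R5D. LCMT1 and FAM122B were added after their values were seen. Values of PPP2R2D were not analysed here. Of the listed markers 1 is not reported here. The longest annotated transcripts, coding or not, shared few 40-base words between subunits, at most 0.0445% of those of a subunit. Positions and 3′ UTRs are from GENCODE v29, which may differ from the authors' annotation, and scripts used Python 3.11.15, numpy 2.4.6, pandas 2.3.3 and matplotlib 3.10.9. Alternatives were pseudocounts of 0.1 and 10, other filters, no trend, quantile normalization, rescaling to the same total, each line alone, a replicate block and leaving out each library.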

Additional observations from a re-analysis of the deposited data

Results flagged for a closer look

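The size of the LKB1 siRNA difference varied between lines for 2 of the 7 subunits tested, PPP2R3A (limma's F test, adjusted p = 0.0101; 0.00345 to 0.0406 when each library was left out) and PPP2R5B (0.0234; 0.0188 to 0.0963, and lost without the first RBE control, the second RBE LKB1 or the first SSP-25 control library). Over all genes tested, 28.2% differed between lines in this test, so 2 of 7 is near the background. PPP2R3A had log2 differences of -0.20 in HuH-28, 0.20 in RBE cells and 0.79 in SSP-25, and PPP2R5B had 0.26, 0.85 and 0.27. Among the other genes named or followed up, the lines differed for STK11 (adjusted p = 0.00128), with log2 differences of -1.59, -1.68 and -2.77, and for PPP2R1B (0.00539; 0.00952 to 0.0244 with each library left out). They also differed for ANKRD44 (0.0275; 0.03 to 0.0917), which was lost without any 1 of the RBE libraries or the second SSP-25 LKB1 library. PPP2R1A (0.0317; 0.026 to 0.101) was lost when any 1 of 9 libraries was left out, and PPME1 (0.0341; 0.0249 to 0.13) when any 1 of 7 was. With all libraries kept, PPP2R1A was also lost after quantile normalization (limma's F test, adjusted p = 0.0676) and without the eBayes trend (0.0655). PPME1 was lost with libraries rescaled to the same total (0.0917) and without the trend (0.0756). PPP2R1A, chosen after its values were seen, had log2 differences of 0.01 in HuH-28, -0.30 in RBE cells and -0.15 in SSP-25. FAM122B, chosen in the same way, also differed between lines (limma's F test, adjusted p = 0.00167). Groups of 2 libraries allow no check for a library far from the others.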

How the results depend on the processing

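Of 783 values of the subunits' siRNA differences under alternatives, 33 moved by more than the spread between libraries, among them PPP2R2B at a pseudocount of 10. Of 540 values of control differences between lines, 15 changed their side of the threshold or direction. Those that turned were not past the threshold in either setting, namely PPP2R2A between SSP-25 and RBE, which lay between -0.074 and 0.027 when 1 library was left out (0.027 without the second RBE control library), and PPP2R3A between the same lines, which became 0.10 after quantile normalization. With each line fitted alone, 1448 genes passed in HuH-28, against 4801, but 7192 in RBE, against 6557, and 7592 in SSP-25, against 6813. Genes whose response differed between lines numbered 3002 (without the second SSP-25 LKB1 library) to 5043 when each library was left out, against 4558. Subunits that did so numbered 1 with libraries rescaled to the same total and 1 to 2 with each library left out, against 2. The causes were not tested. Same-numbered libraries deviated together in HuH-28 (correlation 0.458) but hardly in RBE (0.0544) or SSP-25 (0.0109), and what a number shares is not stated, so pairing was not taken as shown. With the number as a replicate block, 8529 genes passed on average over the lines, against 8464, and with a block within each line 9306, with counts by line of 6103 for HuH-28, 7654 for RBE and 7889 for SSP-25. Of 157 values under these blocks 1 changed its call, the line difference of PPP2CA (adjusted p = 0.0485). Read depth is unknown, which limits low signals such as that of PPP2R2B most.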
